A study of Mus musculus with 6 samples.

Results

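The genes described are 8 genes of the hexosamine pathway and of O-GlcNAc transfer, measured in N18 mouse neuroblastoma cells in which Nrsf, the repressor gene now called Rest, was silenced. The members were all array spots whose gene name was Gfpt1, Gfpt2, Gnpnat1, Pgm3, Uap1, Ogt, Nagk or Gnpda1. These were 14 of the 43530 spots with a value on all 6 arrays, and 8 of 19019 genes. The pathway was chosen by the mean ratio of Uap1, which was among the largest positive ones in this same comparison. The ratios of the 8 genes, and the calls made from them, are therefore given only as a description and not as a test. Each of the 6 arrays carried RNA of cells given an Nrsf siRNA in 1 dye and RNA of cells given a scrambled siRNA, the control, in the other. The siRNA sample was in Cy5 on arrays 1 to 3 and in Cy3 on arrays 4 to 6. Both kinds of cells were thus N18 cells that had received a small RNA, and the labels give no time after transfection. The series describes 6 individual samples without saying that they came from separate transfections.

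Values are log2 ratios, Nrsf siRNA over scrambled siRNA, so 1 means a doubled transcript level in siRNA cells and 0 means no difference. The log base and the direction are not stated in the sources used here. The direction is likely, from the order of the sample names on arrays 1 to 3 and the usual treatment over control, and every direction below would turn round if it ran the other way. Rest, the target of the siRNA, was below 0 on all 6 arrays, the side of a lowered target in the direction taken. The base was taken as 2, and a natural log would make each fold larger. Ratios carry no transcript level, so whether a gene is well expressed in N18 cells, and whether these cells hold their defining markers, cannot be seen. In such bulk RNA, fewer cells with a transcript and less of it per cell cannot be told apart. Rest itself averaged -0.35 ± 0.13 (SD, n = 6), with a range of -0.50 to -0.16 and an exact sign-flip permutation p of 0.0312 (two-sided), the smallest that 6 arrays allow. In limma its adjusted p was 0.00353, and its 3 spots lay at -0.55, -0.44 and -0.054 (adjusted p = 0.000345, 0.00263 and 0.751). Array 1 stood apart, in that it correlated with the other arrays across genes at 0.29 to 0.37, while the others correlated with each other at 0.54 to 0.82.

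The hexosamine pathway turns a small part of the cell's glucose into UDP-GlcNAc, the activated sugar from which N-glycans, heparan sulfate, hyaluronan and GPI anchors are built. Gfpt1 and Gfpt2 encode enzymes that take fructose 6-phosphate and glutamine into the pathway at its rate-limiting step, Gnpnat1 the enzyme that adds an acetyl group, Pgm3 the mutase that moves the phosphate, and Uap1 the pyrophosphorylase that joins the sugar to UTP. Gnpda1 encodes a deaminase that leads back to fructose 6-phosphate, and Nagk the kinase that salvages free N-acetylglucosamine. Ogt encodes the transferase that attaches single O-GlcNAc residues to nuclear and cytosolic proteins, many of them in neurons. In cells of the brain this mark is known on transcription factors, synaptic proteins and cytoskeletal proteins.

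Promoter sequences are shown for Uap1, the member with the largest ratio, and for Gfpt1 and Pgm3, whose spots lay on both sides of 0. Each window holds 250 bases before and 50 after the annotated start in RefSeq on build GRCm38.p6, given on the strand of the gene. Windows of 6 of the 8 members were used. The search left out all windows on the chromosome that carries Gnpda1. Capitals mark TGACGT, a core shared by elements that ATF, CREB and XBP1 proteins are known to bind, and CCAAT, the NF-Y element, each searched on both strands, so that CCAAT can appear as ATTGG. The windows lie at chr1:170174915-170175214 (minus strand), chr6:87042596-87042895 (plus strand) and chr9:86571793-86572092 (minus strand).
Uap1: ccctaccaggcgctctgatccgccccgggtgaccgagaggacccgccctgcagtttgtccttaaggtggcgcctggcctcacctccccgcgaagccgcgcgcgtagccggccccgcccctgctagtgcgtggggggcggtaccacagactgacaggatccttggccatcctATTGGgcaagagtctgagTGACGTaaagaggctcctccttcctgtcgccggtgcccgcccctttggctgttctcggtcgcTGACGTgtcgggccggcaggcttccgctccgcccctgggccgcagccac
Gfpt1: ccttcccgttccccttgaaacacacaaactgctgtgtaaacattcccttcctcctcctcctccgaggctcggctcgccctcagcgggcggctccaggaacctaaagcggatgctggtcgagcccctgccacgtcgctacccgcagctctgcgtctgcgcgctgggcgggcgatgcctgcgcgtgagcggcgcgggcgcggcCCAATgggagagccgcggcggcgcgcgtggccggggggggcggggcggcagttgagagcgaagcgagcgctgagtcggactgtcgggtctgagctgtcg
Pgm3: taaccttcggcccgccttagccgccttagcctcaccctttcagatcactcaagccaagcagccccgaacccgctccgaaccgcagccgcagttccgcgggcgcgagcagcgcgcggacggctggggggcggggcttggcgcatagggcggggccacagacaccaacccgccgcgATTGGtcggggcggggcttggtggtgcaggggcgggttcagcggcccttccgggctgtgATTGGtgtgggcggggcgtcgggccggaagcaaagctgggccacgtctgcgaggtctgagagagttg

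The Uap1 window held TGACGT at 2 places, beginning 61 bases before the start and at base 2 after it. The second match continues as TGACGTG. None of the windows of Gfpt1, Gfpt2, Pgm3, Nagk and Ogt held either form. Among the 32851 RefSeq windows searched, none of them on the chromosome of Gnpda1, 7.51% held TGACGT and 2.01% held TGACGTG on either strand. CCAAT was in the windows of Uap1, Gfpt1, Pgm3 and Gfpt2 and in 37.4% of the windows searched. GGGCGG, the GC box, was in the windows of all 6 members and in 35.7% of the windows searched. The 6-letter pieces AGCACC and GGACAG, taken from the left and right parts of the element that REST binds, and the E-box CACGTG were in none of the members' windows, and in 16.2%, 22.2% and 7.15% of the windows searched. These matches describe letters and not binding.

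Among the 8 genes, Uap1 stood far from the rest. Its transcript was at 1.04 ± 0.36 (SD, n = 6), a 2.06-fold ratio, while the other 7 genes averaged between -0.080 for Pgm3 and 0.19 for Gnpnat1. The median of the 8 genes was -0.029, against 0.0025 over all genes, and it was -0.042 without Uap1. In the limma fit over all genes, 3 of the 8 passed an adjusted p of 0.05, namely Uap1 and Gnpnat1 on the higher side and Pgm3 on the lower side. Of all 19019 genes 15.0% passed, 5.88% higher and 9.11% lower. Uap1 stayed past the threshold without any single array. Gnpnat1 did not pass without array 5 or 6, and Pgm3 did not pass without array 2, 3, 4, 5 or 6, so 1 of the 8 passed without array 5 and 1 without array 6. The share of all genes was 5.87% without array 5 and 6.38% without array 6. Since this comparison chose the pathway, nothing is read from these counts.

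At the level of spots, 4 of 14 passed, 1 each of Uap1, Gnpnat1, Pgm3 and Ogt, against 11.1% of all spots. All spots here include those without a single gene name, whereas each of the 14 has one. The share among named spots alone was not computed. Those of Uap1 and Gnpnat1 were higher, as were 4.21% of all spots, and those of Pgm3 and Ogt lower, as were 6.85%. Since the same comparison chose the pathway, nothing is read from the calls of spots or from how they hold without an array. The spots of Uap1, Gnpnat1 and Pgm3 passed without any single array, whereas that of Ogt passed only with all arrays or without array 1. Without array 1, 8 of 14 spots passed, the added ones being the 3 spots of Gfpt1 and that of Gnpda1. Among all genes, 25.9% passed without array 1, against 15.0% with all arrays. The matching share of all spots was not computed. A pair of spots (Uap1 and 1 of Gnpnat1) was above 0 on all 6 arrays, 3 spots were below 0 on all 6, and 9 had mixed signs. Only the Uap1 spot reached a 1.5-fold mean ratio. Array 1 lay outside the range of the other 5 arrays for 10 of the 14 spots, against 48.7% of all spots. For array 5 it was 7 of 14 spots, against 28.8% of all spots, and for each other array between 1 and 3 of 14.

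**Figure D1:**
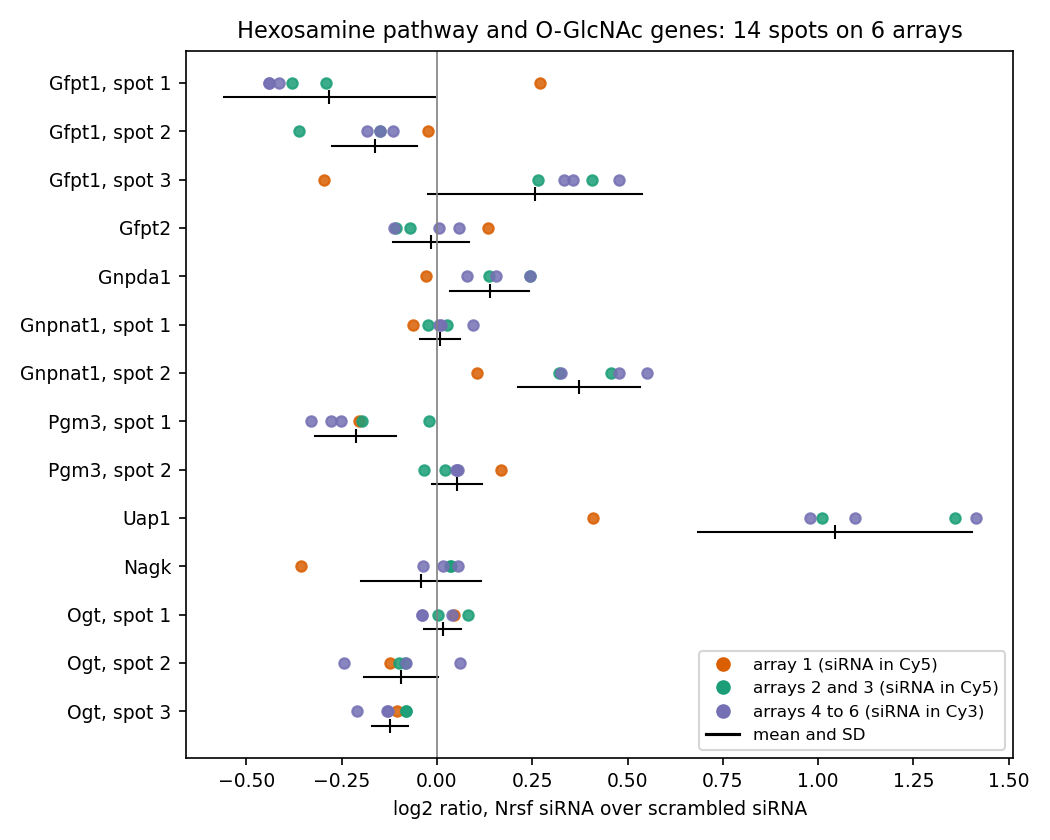
Log2 ratios (Nrsf siRNA over scrambled siRNA, horizontal axis) of the 14 spots on each of the 6 arrays, in pathway order, with the mean and SD over 6 arrays as a bar under the points. The Uap1 spot has its lowest value, 0.41, on array 1 and reaches 0.98 to 1.41 elsewhere, while all other spots average between -0.28 and 0.37.

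The entry step was read by 3 spots for Gfpt1 and 1 for Gfpt2. Spot 1 of Gfpt1, listed for the RefSeq transcript, was at 0.27, -0.29, -0.38, -0.42, -0.44 and -0.44 on arrays 1 to 6 (mean -0.28 ± 0.28, SD, n = 6). Array 1 was the only array above 0 there, and without it the mean was -0.39 ± 0.062 (SD, n = 5). Spot 2, listed for a RefSeq transcript as well, was at -0.023, -0.36, -0.15, -0.11, -0.18 and -0.15 (mean -0.16 ± 0.11), below 0 on every array. Spot 3, listed for a cDNA entry, was at -0.30, 0.27, 0.41, 0.33, 0.48 and 0.36 (mean 0.26 ± 0.28), and without array 1 at 0.37 ± 0.080 (SD, n = 5).

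On arrays 2 to 6 the cDNA spot of Gfpt1 was thus higher in siRNA cells while both RefSeq spots were lower, and the values did not overlap. On array 1 spots 1 and 3 lay on the opposite sides. Spot 1 minus spot 3 averaged -0.54 ± 0.56 (SD, n = 6) and was below 0 on 5 of 6 arrays. This range of 0.54 between spots of 1 gene was wider than in 94.2% of the 1972 genes with 3 spots, whose median range was 0.11. The gene average of Gfpt1, -0.063 ± 0.038, thus combines spots on opposite sides of 0. Which part of the transcript each spot reads is not given in the sources used here.

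Gfpt2, the second enzyme of the entry step, was at 0.13, -0.11, -0.071, 0.058, -0.11 and 0.006 on arrays 1 to 6. Its mean was -0.016 ± 0.099 (SD, n = 6), with 3 arrays above 0 and 3 below. Gnpda1, which runs the step backwards, was at -0.028, 0.24, 0.14, 0.25, 0.16 and 0.078. Gnpda1 was above 0 on arrays 2 to 6 and averaged 0.14 ± 0.10, which is 110.1% of the scrambled level, with 7.42% of all genes ranked above it. It did not pass with all arrays and did so without array 1, where the mean was 0.17 ± 0.072 (SD, n = 5).

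The acetyl transfer step was read by 2 spots of Gnpnat1. The RefSeq spot was at 0.11, 0.46, 0.32, 0.33, 0.55 and 0.48 on arrays 1 to 6, a mean of 0.37 ± 0.16 (SD, n = 6) and a ratio of 1.29-fold. It was above 0 on every array, and lowest on array 1. The spot listed for a cDNA entry was at -0.062, 0.026, -0.023, 0.095, 0.005 and 0.01, a mean of 0.0085 ± 0.052. It lay below the RefSeq spot on all 6 arrays, by 0.36 ± 0.15 on average, so the gene mean of 0.19 ± 0.094 averages a spot near 0 with one that was higher.

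The mutase Pgm3 was also read by 2 spots, both listed for a RefSeq transcript. The first was at -0.20, -0.20, -0.02, -0.28, -0.25 and -0.33 (mean -0.21 ± 0.11, SD, n = 6), below 0 on all arrays. The second was at 0.17, 0.021, -0.033, 0.055, 0.053 and 0.051 (mean 0.053 ± 0.066), above 0 on 5 of 6. The first minus the second averaged -0.27 ± 0.15 and was below 0 on 5 of 6 arrays, array 3 being the exception. This difference between the Pgm3 spots was larger than its SD over arrays. The range of 0.27 was wider than in 88.8% of the 5249 genes with 2 spots, and that of Gnpnat1, 0.36, wider than in 93.6% of them, with a median range of 0.056.

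**Figure D2:**
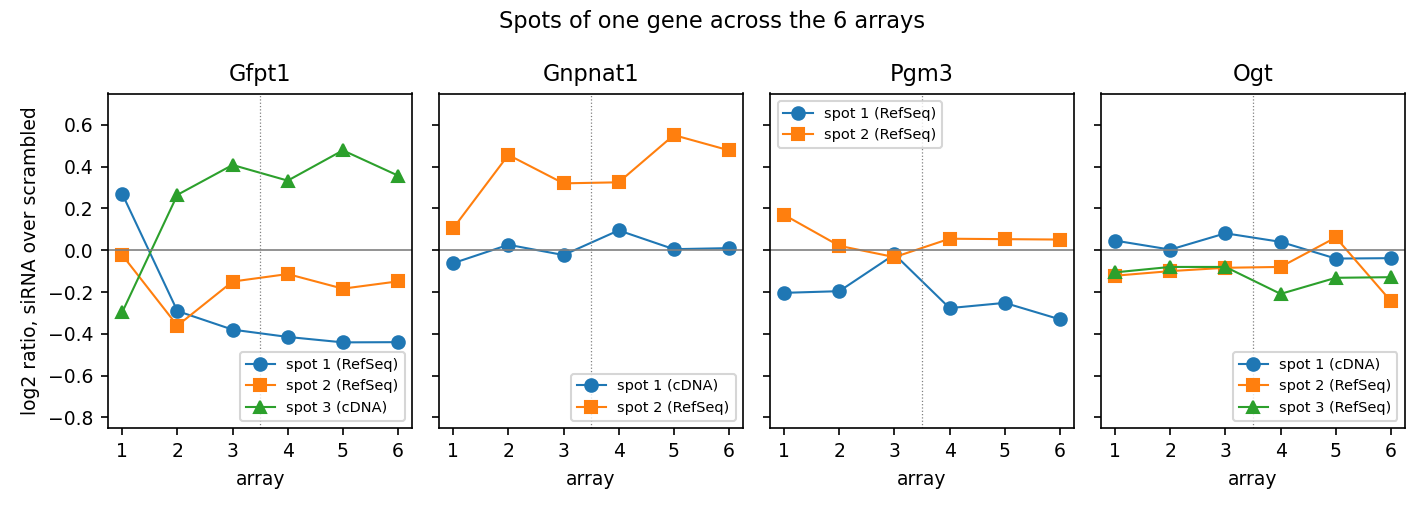
Log2 ratios (siRNA over scrambled, vertical axis) of each spot of the 4 genes with more than 1 spot, by array, with the dotted line between arrays 1 to 3 (siRNA in Cy5) and 4 to 6 (siRNA in Cy3) and lines joining points of a spot as a guide. Spot 3 of Gfpt1 lies above spots 1 and 2 on arrays 2 to 6 and below both on array 1. The Gnpnat1 spots differ by 0.36 on average, and the 3 Ogt spots lie within 0.14 of each other on average.

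Uap1, the last enzyme before UDP-GlcNAc, was read by a single spot, listed for the RefSeq transcript. It was at 0.41, 1.36, 1.01, 1.096, 1.41 and 0.98 on arrays 1 to 6. All arrays were above 0, array 1 by the least, and without array 1 the mean was 1.17 ± 0.20 (SD, n = 5). By orientation the mean was 0.93 ± 0.48 over the Cy5 arrays and 1.16 ± 0.23 over the Cy3 arrays (SD, n = 3 each). The gene ranked 12 of 19019 by mean ratio, between Ddit4 at 1.07 (rank 11) and Man2a1, a Golgi mannosidase of N-glycan trimming, at 1.02 (rank 13). Only 19 genes, Uap1 included, had an absolute mean ratio that large, and the median over all genes was 0.034. Since the array names 1 spot for it, no other spot stands beside this value. Its paralog Uap1l1, named after its values were seen, was at -0.037 ± 0.075 (adjusted p = 0.475 in limma).

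Across the 6 arrays, the named genes with values nearest to those of Uap1 (Euclidean distance over the 6 arrays, among 17558 genes) were Hadhb, Tesc and Lgalsl. Hadhb, a subunit of the mitochondrial trifunctional protein of fatty acid oxidation, was at a distance of 0.48 and a mean of 0.99 ± 0.28 (SD, n = 6). Tesc, a calcium-binding protein gene, was at 0.50 with a mean of 0.98 ± 0.28, and Lgalsl, a galectin-like gene, at 0.51 with a mean of 0.96 ± 0.36. The median distance of all compared genes was 2.69. A gene at 0 on every array would lie at 2.68, so this median mainly gives the size of the Uap1 values. All 3 rest on 1 spot each and were lowest on array 1, at 0.42, 0.44 and 0.35. Their pick by closeness to Uap1 on the same arrays favours this pattern, so nothing is read from it.

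**Figure D3:**
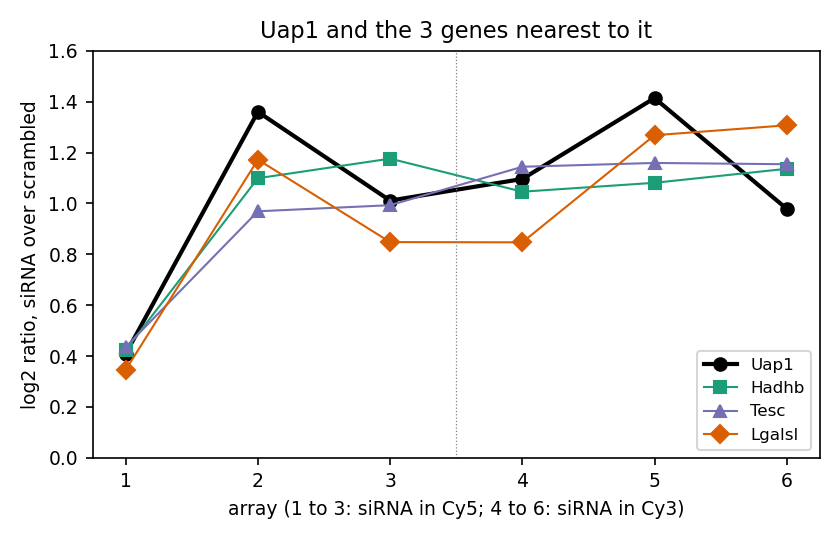
Log2 ratios (siRNA over scrambled, vertical axis) of Uap1 and of Hadhb, Tesc and Lgalsl on the 6 arrays, with lines joining points of a gene as a guide. Each of the 4 genes is lowest on array 1, between 0.35 and 0.44, and lies between 0.85 and 1.41 on arrays 2 to 6. Hadhb, Tesc and Lgalsl were picked for closeness to these Uap1 values, so their likeness is no result.

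The salvage kinase and the transferase had small gene means that did not pass, of mixed sign over arrays for Nagk and below 0 on all 6 arrays for Ogt. Nagk was at -0.36, 0.038, 0.033, -0.037, 0.017 and 0.054 on arrays 1 to 6. Its mean of -0.042 ± 0.16 (SD, n = 6) was set by array 1, and without it the mean was 0.021 ± 0.035 (SD, n = 5), within 1 SD of 0. Ogt had spot means of 0.015 ± 0.049 (cDNA entry), -0.095 ± 0.098 and -0.12 ± 0.048 (both for a RefSeq transcript), and a gene mean of -0.067 ± 0.039. Spot 3 of Ogt was at -0.11, -0.080, -0.080, -0.21, -0.13 and -0.13 on arrays 1 to 6, below 0 on all arrays. The range between the Ogt spots, 0.14, was wider than in 56.5% of the genes with 3 spots.

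The dye orientation is a measure that the choice of genes did not use. In limma none of the 14 spots differed between the Cy5 and the Cy3 arrays past the threshold, against 0.558% of all spots, and 0 were under an unadjusted p of 0.05. That share includes spots without a gene name, whose ratios ran opposite ways between orientations (correlations of -0.67 to -0.40). It is thus not a like measure for the 14 named spots, and with a share this small 0 of 14 says little. Spot 1 of Pgm3 came nearest, at -0.14 ± 0.10 (SD, n = 3) in Cy5 and -0.29 ± 0.040 (SD, n = 3) in Cy3, with an adjusted p of 0.482 in limma. For Uap1 the adjusted p was 0.736. A p past 0.05 does not show that the orientations gave equal values, and 3 arrays a side limit what can be seen.

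Other genes of amino sugar metabolism were then examined in the fit over all genes. Of 22 listed, 20 were measured, 5 fell and 1 rose past the threshold, with a median of 0.0081, beside 0.0025 for all genes. These are 30% of the list, beside 15.0% of all genes (5.88% higher and 9.11% lower). Nanp, the phosphatase that completes sialic acid synthesis, fell by 0.44 ± 0.14 (SD, n = 6, adjusted p = 0.00251 in limma), with a range of -0.59 to -0.22. Eogt, which places O-GlcNAc on secreted proteins in the endoplasmic reticulum, fell by 0.31 ± 0.13 (adjusted p = 0.00887). Pgm1, a phosphoglucomutase gene, fell by 0.25 ± 0.25 (adjusted p = 0.0338) and did not pass without array 3, 4, 5 or 6. Named after their values were seen, Gnpda2, the paralog of Gnpda1, fell by 0.20 ± 0.093 (adjusted p = 0.00567), and Naglu, a lysosomal enzyme that frees N-acetylglucosamine, rose by 0.15 ± 0.13 (adjusted p = 0.0394). The call of Naglu held only with all arrays or without array 1, and of its 2 spots, at 0.017 and 0.28, 1 passed. Without array 1, 10 of the 20 passed, 5 higher and 5 lower, beside 25.9% of all genes (13.7% higher and 12.2% lower).

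Oga, which encodes the enzyme that removes O-GlcNAc and so opposes Ogt, was the fifth that fell. Its gene mean was at -0.35, -0.29, -0.25, -0.13, -0.19 and -0.080 on arrays 1 to 6, below 0 on all of them. The mean of -0.22 ± 0.10 (SD, n = 6, adjusted p = 0.00305 in limma) stayed past the threshold without any single array. Its 4 spots, all listed for a RefSeq transcript, did not move alike. Spots at -0.39 ± 0.13 and -0.23 ± 0.093 passed (adjusted p = 0.000575 and 0.00895), one at -0.24 ± 0.29 did not (adjusted p = 0.122) and rested on -0.78 on array 1, and the last was at -0.0073 ± 0.044 (adjusted p = 0.932). Ogt minus Oga averaged 0.15 ± 0.13 (SD, n = 6) and was above 0 on 5 of 6 arrays, a mean little above its SD over arrays.

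Genes that supply glucose, glutamine, acetyl groups and UTP to the pathway went both ways. Of 17 measured, 4 rose and 4 fell, with a median of -0.048. These are 47.1% of the list, beside 15.0% of all genes (5.88% higher and 9.11% lower). Slc2a1, the glucose transporter GLUT1, rose by 0.38 ± 0.20 (SD, n = 6, adjusted p = 0.0105 in limma), while the glutamine transporters Slc38a1 and Slc38a2 fell by 0.31 ± 0.045 (adjusted p = 0.000784) and 0.22 ± 0.12 (adjusted p = 0.0153). Cad, the enzyme that opens pyrimidine synthesis, fell by 0.21 ± 0.12 (adjusted p = 0.00965). The 6 spots of Slc38a1 ranged from -0.83 to -0.028, and 4 of them passed. Of 4 spots each, 2 of Slc38a2 (range -0.37 to -0.054) and 2 of Cad (range -0.29 to -0.045) passed. Of the 8 calls, those of Slc38a1 and Hk1 (a hexokinase gene named after its values were seen, at 0.19 ± 0.061, adjusted p = 0.00645) held without any single array. The 6 spots of Hk1 ranged from 0.011 to 0.73, and 3 of them passed. Without array 5, 2 of the 17 passed, beside 5.87% of all genes, and Slc2a1 did not. Slc38a2 did not pass without array 4, 5 or 6, and Cad not without array 5 or 6. Array 1 had a list median of -0.30, and arrays 2 to 6 had medians of -0.11 to 0.041.

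Of 39 measured enzymes that consume UDP-GlcNAc, 3 rose and 1 fell, with a median of -0.010. These are 10.3% of the list, near the 15.0% of all genes that passed. Alg14, which helps add the second sugar of N-glycans, rose by 0.32 ± 0.23 (SD, n = 6, adjusted p = 0.0487 in limma) and Mfng, a Fringe transferase that modifies Notch, by 0.28 ± 0.17 (adjusted p = 0.00597). Gnptg, a subunit of the enzyme that tags lysosomal proteins, rose by 0.26 ± 0.16 (adjusted p = 0.0295), and B3gnt2, which extends poly-N-acetyllactosamine, fell by 0.090 ± 0.041 (adjusted p = 0.0380). Mfng kept its call without any single array, whereas the other 3 passed only with all arrays or without array 1. In the fit over all spots, the only spot of Alg14 did not pass and the only spot of Mfng did. Of 2 spots each, 1 of Gnptg (range 0.099 to 0.42) and 0 of B3gnt2 (range -0.13 to -0.050) passed there. Without array 2, 4, 5 or 6, 1 of the 39 passed, without array 3 it was 2, and without array 1 it was 8. Of all genes, 25.9%, 9.51%, 10.6%, 8.21%, 5.87% and 6.38% passed without arrays 1 to 6 in turn.

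Among 12 genes listed as partners of O-GlcNAc transferase, 1 rose and 1 fell, with a median of -0.0035. These are 16.7% of the list, about the 15.0% of all genes. Bap1, a nuclear deubiquitinase, fell by 0.19 ± 0.075 (SD, n = 6, adjusted p = 0.0104 in limma) and Mllt3, of the super elongation complex, rose by 0.28 ± 0.15 (adjusted p = 0.0134). Neither passed without array 5 or 6, Mllt3 did not pass without array 4 either, and 0 of 12 passed without array 5 and 0 without array 6 (2 of 12 in limma at an unadjusted p under 0.05 in either case). Of all genes, 5.87% passed without array 5 and 6.38% without array 6. The 5 spots of Mllt3 ranged from -0.0068 to 0.57, and 3 of them passed. The 2 spots of Bap1 were at -0.325 and -0.056, and 1 of them passed.

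The unfolded protein response was listed because its factor Xbp1 is known in mice to activate genes of the hexosamine pathway. Of 18 measured genes, 5 rose and 3 fell, with a median of 0.054. These are 44.4% of the list, beside 15.0% of all genes (5.88% higher and 9.11% lower). Xbp1 rose by 0.45 ± 0.20 (SD, n = 6, adjusted p = 0.00788 in limma), with its lowest value of 0.096 on array 1 and its highest of 0.655 on array 4, and kept its call without any single array. The chaperone Hspa5 rose by 0.24 ± 0.15 (adjusted p = 0.0118) and the disulfide isomerase Pdia4 by 0.36 ± 0.26 (adjusted p = 0.0108). Herpud1, a component of degradation from the endoplasmic reticulum, fell by 0.43 ± 0.17 (adjusted p = 0.00687), so the list did not go one way. Hspa5 did not pass without array 4 or 5, nor Pdia4 without array 5 or 6. Without array 2, 4, 5 or 6, 4, 3, 2 or 3 of the 18 passed. The share of all genes was then 9.51%, 8.21%, 5.87% or 6.38%. Markers of glial, mesenchymal, endothelial and immune cells stayed near 0, between -0.034 and 0.034 over 12 measured genes. None of them passed in limma and 0 were under an unadjusted p of 0.05, Col3a1 coming nearest at 0.034 ± 0.042 (adjusted p = 0.471). Ratios carry no level, so markers absent from both samples would lie near 0 as well, and nothing is read from these values.

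**Figure D4:**
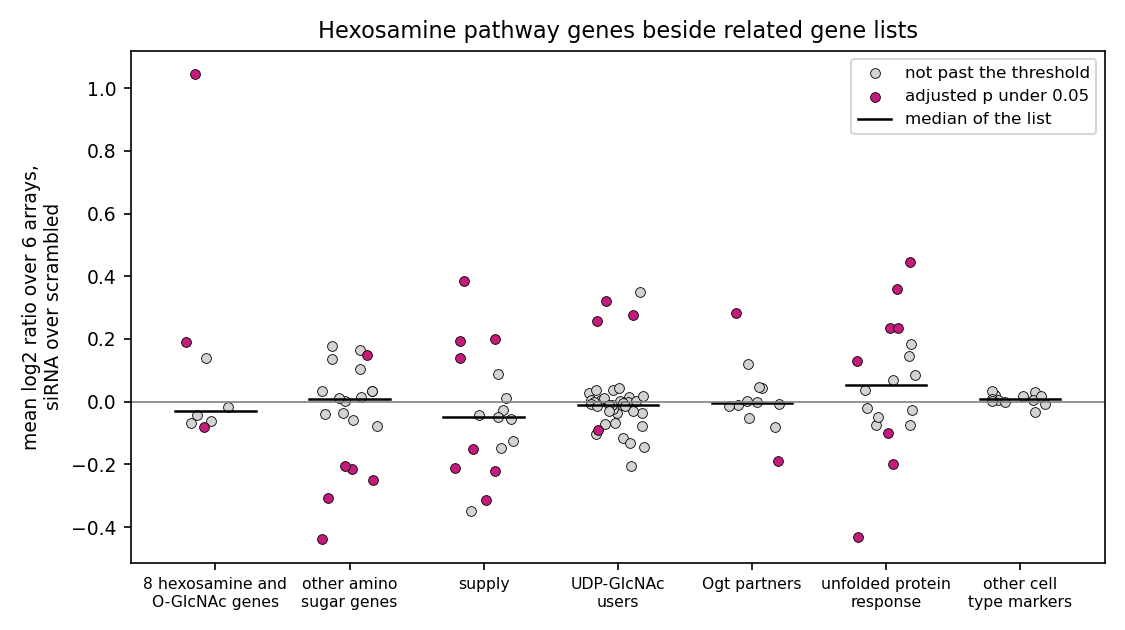
Mean log2 ratio over 6 arrays (siRNA over scrambled, vertical axis) of the 8 hexosamine and O-GlcNAc genes and of 6 related gene lists, with each point a gene, genes at an adjusted p under 0.05 in colour and the list median as a bar. Uap1, at 1.04, lies above every gene of the other lists, whose highest value is 0.45 (Xbp1).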

How the data were processed

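RNA extracted with Trizol was labelled by Agilent's linear amplification, per the labels' protocols. The authors deposited log ratios, taken here as log2, for 44290 spots, already centred and turned to a common direction: named spots correlated between orientations at 0.36 to 0.71, unnamed ones at -0.67 to -0.40. The sources used here do not name the normalization or the log base. The largest dye-linked value of an unnamed spot, 3.38, would be a 10.4-fold ratio in log2, 29.3-fold in natural log and 2391-fold in log10.

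Spots with a value on all 6 arrays were averaged per gene, with symbols updated to the GRCm38.p6 gene table. Tests used limma 3.58.1 in R 4.3.3 with a mean and a dye term (4 residual degrees of freedom) and Benjamini-Hochberg adjustment at 0.05 over all genes or spots, and were tested on simulated data. Named were the 8 members, Rest, up to 4 genes per list with the largest change past the threshold (or the smallest p) and the 3 genes nearest to Uap1. The members and lists were chosen with earlier results of these data known. p-values measure the spread between these arrays, which may be partly technical.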

Additional observations from a re-analysis of the deposited data

Results flagged for a closer look

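Of 38 values (member spots, gene means and named genes of the lists), 5 had 1 array set apart from the other 5 by Dixon's rule, and in each it was array 1. Chance marks about 1 in 20 values, and these share arrays, so they are not independent. Spot 1 of Gfpt1 stood at 0.27 on array 1, with the other arrays at -0.44 to -0.29. Spot 3 of Gfpt1 stood at -0.30 there, with the others at 0.27 to 0.48. Nagk stood at -0.36, with the others at -0.037 to 0.054. The gene mean of Slc38a2 stood at -0.46, with the others at -0.20 to -0.15, and that of Mllt3 at -0.019, with the others at 0.31 to 0.37. Across all genes, array 1 also had the lowest 5th percentile, -0.53, with the others at -0.26 to -0.21.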

How the results depend on the processing

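Values in this section are estimates from the limma fit. Without an array, or with array weights, they can differ slightly from the plain means over arrays given above. The estimates of single members moved by less than 1 SD over arrays in 107 cases, by more in 4, and 1 further value, of Ogt, changed sign by more than that. Gfpt2 and Nagk, whose means lay within 1 SD of 0, changed sign as well, Gfpt2 to 0.0076 without array 2 and 0.0087 without array 5, and Nagk to 0.011 on the Cy3 arrays and with array weights and 0.023 without array 1. Taking the first spot of a gene turned Ogt to 0.015 and moved Gfpt1 to -0.28, Gnpnat1 to 0.0085 and Pgm3 to -0.21, since their spots differ, and the median over spots put Gfpt1 at -0.15. On the 3 Cy5 arrays, none of the 8 genes, their 14 spots or the amino sugar, supply, user, partner and unfolded protein lists had a call (0 each in limma, with 1, 3, 5, 7, 2, 2 and 6 in that order at an unadjusted p under 0.05), and Rest was at -0.28 (adjusted p = 0.205). On the 3 Cy3 arrays 8 member spots, 10 amino sugar and 8 user genes passed, and the members' median was -0.0025. With array weights the counts were 5 members, 8 spots, 10 amino sugar and 8 user genes. With the median over spots, 5 members passed. With the first spot, 3 supply, 2 user and 1 partner genes passed, the members' median was -0.0035 and Rest was at -0.054 (adjusted p = 0.742). Of all genes, 2852 (15.0%) passed, against 9 (0.0473%) on the Cy5 arrays, 4262 (22.4%) on the Cy3 arrays and 4728 (24.9%) with array weights. With the median over spots it was 13.9% of all genes, and with the first spot 12.8%. Shares of all spots in the alternative settings were not computed, so nothing is read from the counts of member spots there. Without arrays 1 to 6 in turn, 4921, 1809, 2008, 1562, 1116 and 1214 genes passed. The cause was not tested. Leaving out the dye term, scaling the arrays to a common spread, a robust prior and a minimum of 4 arrays with a value moved none of these list counts by over 1.5 times. Without a single array, calls ranged from 1 to 4 for members, 3 to 8 for their spots, 4 to 10 for amino sugar, 2 to 10 for supply, 1 to 8 for user, 0 to 3 for partner and 2 to 11 for unfolded protein genes, and the members' median from -0.037 to -0.015 and Rest from -0.39 to -0.33. Uap1 lay between 0.93 and 1.17 in all alternatives. No paired analysis was possible because each array already sets a siRNA sample against a scrambled sample of the same number, and no number recurs across arrays. Signal over background is not known from ratios, so a ratio near 0 can also come from a dim spot.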

Other observations

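Neighbouring protein-coding genes on the chromosome were looked up after the values were seen. Of 15 measured neighbours of the 8 members, 5 passed in limma, 2 higher and 3 lower, beside 15.0% of all genes (5.88% higher and 9.11% lower). Uap1 lies between Ddr2, a collagen receptor gene at -0.11 ± 0.13 (SD, n = 6, adjusted p = 0.197 in limma), and Uhmk1, a kinase gene at 0.23 ± 0.10 (adjusted p = 0.0118). Gnpda1 lies beside Ndfip1, which encodes a ubiquitin ligase adaptor and rose by 1.17 ± 0.40 (adjusted p = 0.00336), and Rnf14, at 0.16 ± 0.25 (adjusted p = 0.297). Nagk lies between Tex261, at -0.14 ± 0.042 (adjusted p = 0.00499), and Paip2b, at -0.10 ± 0.034 (adjusted p = 0.0198). Gnpnat1 lies beside Styx, at -0.099 ± 0.035 (adjusted p = 0.0272). The other 8 measured neighbours of Gfpt1, Gfpt2, Gnpnat1, Pgm3 and Ogt did not pass, with means of -0.093 to 0.047 and adjusted p-values of 0.0693 to 0.973.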
